A study of Homo sapiens with 11 samples.

Results

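The miR-125 family was examined here through its 5 mature miRNAs, hsa-miR-125a-5p, hsa-miR-125a-3p, hsa-miR-125b-5p, hsa-miR-125b-1-3p and hsa-miR-125b-2-3p. They were picked by name from the 2576 miRNAs of the count tables, both arms of each hairpin included. The cells were SH-SY5Y, a human neuroblastoma line derived from SK-N-SH, which takes on a neuron-like form in all-trans retinoic acid (ATRA). Every culture, controls included, received 10 µM ATRA for 7 days. In co-treatment, hydrogen peroxide (H2O2, 10 µM) was present during those 7 days, and in pre-treatment it was given for 72 h before ATRA and then taken away. Controls were differentiated without H2O2. The libraries numbered 3 controls and 3 H2O2 cultures in co-treatment, and 2 controls and 3 H2O2 cultures in pre-treatment. The comparisons ask how oxidative stress during or before differentiation alters miRNA expression. All 11 libraries come from a single tumour cell line.

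A miRNA is cut from a hairpin transcript, and either strand of the hairpin stem can be loaded into the silencing complex. The strand from the 5′ side is called the 5p arm and the strand from the 3′ side the 3p arm. Pairing of the seed, bases 2 to 8 of the loaded strand, with a messenger RNA is the main determinant of which transcripts are repressed. In miR-125a and miR-125b the 5p arm is usually the abundant one. These miRNAs are related to lin-4, the founding miRNA of Caenorhabditis elegans, and miR-125b is well known in brain and in neuronal differentiation.

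The mature sequences are shown because they separate the family into those that share a seed and those that do not. They are RefSeq sequences written 5′ to 3′ with the seed in capitals.
hsa-miR-125a-5p: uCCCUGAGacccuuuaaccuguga
hsa-miR-125b-5p: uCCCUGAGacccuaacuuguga
hsa-miR-125a-3p: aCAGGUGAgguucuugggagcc
hsa-miR-125b-1-3p: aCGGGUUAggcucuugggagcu
hsa-miR-125b-2-3p: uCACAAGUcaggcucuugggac
The 5p arms carry the same seed and the same first 13 bases, and their alignment holds 21 identical bases, 1 mismatch and 2 gap bases. Among 2370 mature human miRNAs in the RefSeq table, that seed occurred in 3, and the third, hsa-miR-4319, had 0 counts in all 11 libraries, under the limit of 3 counts that a count of 0 allows. Each 3p arm had a seed of its own that no other miRNA of the table carried. Across their whole length the 3p arms of miR-125a and miR-125b-1 shared 18 identical bases with 4 mismatches and no gap. GC content was 50% in both 5p arms, 59.1% in miR-125a-3p and miR-125b-1-3p, and 54.5% in miR-125b-2-3p.

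The hairpins of miR-125a and miR-125b-1 are given with both mature arms in capitals, to show where the arms sit in the precursor.
MIR125A: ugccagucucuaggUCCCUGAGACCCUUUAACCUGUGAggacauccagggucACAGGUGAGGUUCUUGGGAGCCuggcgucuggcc
MIR125B1: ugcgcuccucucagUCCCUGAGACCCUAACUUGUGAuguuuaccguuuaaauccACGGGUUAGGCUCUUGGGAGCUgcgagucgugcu
On GRCh37, MIR125A lies at chr19:52196507-52196592 on the plus strand, with the 5p arm at chr19:52196521-52196544 and the 3p arm at chr19:52196559-52196580. It overlaps an exon of SPACA6, a protein-coding gene of the same strand, and of SPACA6-AS1, a long non-coding RNA of the opposite strand. MIR125B1 lies at chr11:121970465-121970552 on the minus strand, in an intron of the long non-coding RNA MIR100HG. MIR125B2 lies on the plus strand of chromosome 21 and overlaps an exon of the long non-coding RNA MIR99AHG. The mature miR-125b-5p is identical in the 2 miR-125b hairpins (on chromosome 11 at chr11:121970517-121970538), whereas miR-125b-1-3p (chr11:121970477-121970498) and miR-125b-2-3p each come from one. How reads that align to several places were counted is not given in the sources used here, so the level of miR-125b-5p may be understated. Ratios of miR-125b-5p to miR-125a-5p, or to the miR-125b 3p arms, are therefore compared only between libraries. They are not read as the relative abundance of the miRNAs.

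The libraries held 5343953 to 8927582 counts, and 3 counts correspond to between 0.336 and 0.561 CPM (counts scaled to a common library total). The pre-treatment controls stood apart from each other, with a Pearson correlation of log2 CPM across 764 miRNAs of 0.933, against 0.977 to 0.992 for pairs within the other groups. Neuronal markers were mixed. miR-137, miR-375, miR-128-3p and miR-7-5p each had at least 1731 counts in every library, miR-9-5p had 14 to 46 and miR-124-3p had 0 to 7. The summed level of the 6 neuronal markers was 35661 to 38091 CPM in co-treatment controls and 18465 to 22845 with H2O2, and 14352 to 28702 in pre-treatment controls and 30493 to 37068 with H2O2. This sum mostly follows miR-137, which had the most counts of the 6 in every library. In pre-treatment miR-128-3p went with it (8016 and 8556 counts in control, 13642 to 14814 with H2O2). There miR-375 went the other way (19808 and 37792 against 12427 to 14208). In co-treatment the counts of miR-375 overlapped (13649 to 24604 and 14776 to 27385). The 3 mesenchymal markers summed to 6547 to 18809 CPM, lowest and highest in the pre-treatment controls. For the liver marker miR-122-5p, levels were 92.5 and 261 CPM in pre-treatment controls against 536.7 to 787.6 with H2O2, and 151.6 to 296.7 against 208 to 539.7 in co-treatment. The 7 blood markers summed to 12.7 to 27.6 CPM and the 4 epithelial markers to 59.9 to 90.0 CPM, except in pre-treatment control 1, where they reached 114.6 and 194.4 CPM with 540 counts of miR-223-3p and 1007 of miR-205-5p. The 3 muscle markers summed to at most 6.94 CPM, with miR-133a-3p at 0 throughout. The part of these differences in the results below was not tested.

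All 5 members passed the low-count filter in both experiments, and their levels ranged from 8.98 to 138739 CPM. Levels below are CPM after TMM scaling (trimmed mean of M-values), which equalises the bulk of miRNAs between libraries. Since mature miRNAs differ little in length, they are not scaled to it. miR-125a-5p made up 98.5% to 99.5% of all counts of the family. By count it ranked first among the miRNAs of pre-treatment control 1, ninth in control 2 and between rank 3 and rank 8 elsewhere. miR-125b-5p ranked 143 to 178, miR-125a-3p 137 to 209, miR-125b-2-3p 191 to 298 and miR-125b-1-3p 275 to 417. In its lowest library, the rarest member was covered by 65 counts.

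**Figure D1:**
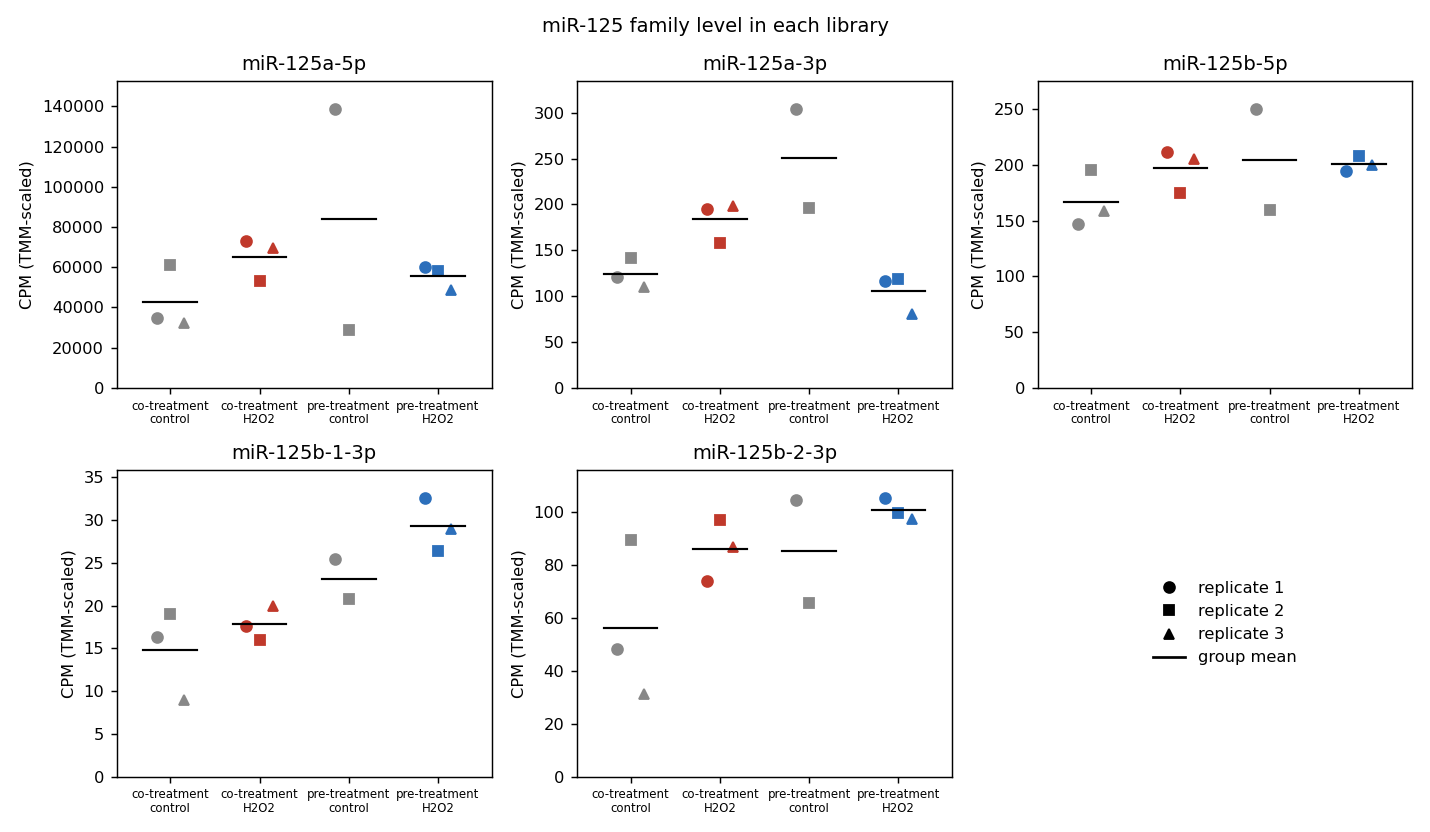
TMM-scaled CPM (vertical axes, each starting at 0) of the 5 miRNAs in the 11 libraries by group (horizontal axes), with replicates as symbols and the group mean as a line. For miR-125a-3p both pre-treatment controls, at 196.1 and 304.2 CPM, lie above the 3 pre-treatment H2O2 libraries, whereas for miR-125a-5p they lie on either side of them.

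In co-treatment, all 5 members had a higher mean with H2O2 than in control, but none passed the test. The differences were of similar size in miR-125a-5p, miR-125a-3p and miR-125b-2-3p and smaller in miR-125b-5p and miR-125b-1-3p. A miRNA was called when the false discovery rate (FDR) of edgeR's exact test was under 0.05 and |log2FC| was above 0.6, which 207 of 790 miRNAs reached (26.2%; 84 up-regulated and 123 down-regulated). A log2FC above 0 was found in 5 of 5 members and in 48.9% of all miRNAs tested. The median log2FC was 0.57 over the members and -0.04 over all miRNAs.

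The dominant 5p arm of miR-125a, whose targets in other cells include p53 and ERBB receptor transcripts, stood at 34709, 61159 and 32209 CPM in the controls and at 73106, 53017 and 69584 CPM with H2O2. Control 2 lay within the range of the H2O2 libraries, so the groups overlapped. The means were 65236 ± 10727 (SD, n = 3) with H2O2 and 42693 ± 16041 (SD, n = 3) in control. The log2FC was 0.61 with an SE of 0.24 and a 95% interval of 0.10 to 1.12 (FDR = 0.104). Without control 2, the highest control, it was 0.97 (FDR = 0.00419), and without H2O2 library 2, the lowest of its group, it was 0.86 (FDR = 0.0178). With any other library left out it was 0.55 to 0.60 (FDR = 0.175 to 0.257).

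miR-125a-3p, the passenger arm of the same hairpin, was at 120.4, 141.7 and 110.1 CPM in control and at 195.5, 158 and 198.4 CPM with H2O2. Here the groups did not overlap, as was the case for 1 of the 5 members and for 41.6% of all miRNAs tested. The means were 184 ± 22.5 and 124 ± 16.1 (SD, n = 3 each), the log2FC was 0.57 (SE 0.26, interval 0.02 to 1.12), and the FDR of 0.107 missed the threshold. It reached an FDR of 0.0422 with DESeq2 (log2FC 0.61), and leaving out H2O2 library 2, the lowest of its group, gave a log2FC of 0.77 (FDR = 0.0257). With any other library left out the log2FC was 0.53 to 0.68 (FDR = 0.05665 to 0.278). After correction for the GC content of the mature sequences, library by library, the quasi-likelihood fit gave 0.23 (FDR = 0.551), against 0.57 (FDR = 0.106) without the correction on the same miRNAs.

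miR-125b-5p, the arm studied most in neuronal differentiation, had 147.1, 195.1 and 158.5 CPM in control and 211.7, 174.8 and 205.1 CPM with H2O2. The groups overlapped and the log2FC was 0.24 (SE 0.26, interval -0.31 to 0.79, FDR = 0.546). For miR-125b-2-3p the controls were spread from 31.1 to 89.6 CPM (48.2, 89.6 and 31.1), whereas the H2O2 libraries were at 74.1, 97.2 and 86.8 CPM. Its log2FC was 0.61 (SE 0.33, interval -0.09 to 1.31, FDR = 0.173), and 1.12 without control 2, the highest of the controls (FDR = 0.00238). With any other library left out it was 0.43 to 0.74 (FDR = 0.1725 to 0.382). The least abundant member, miR-125b-1-3p, was at 16.34, 18.96 and 8.98 CPM in control and at 17.6, 15.9 and 19.9 CPM with H2O2. Its groups overlapped, and the log2FC was 0.27 (SE 0.31, interval -0.38 to 0.93, FDR = 0.584).

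In pre-treatment, miR-125a-3p was down-regulated 2.38-fold and was the only member called. The call rule took 133 of 868 miRNAs (15.3%; 47 up-regulated and 86 down-regulated), so 1 of 5 is near the background. miR-125b-1-3p had its H2O2 libraries above both controls without passing the test, and the other 3 overlapped. The median log2FC was -0.03 over the members, 2 of which were above 0, and -0.19 over all miRNAs.

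miR-125a-3p measured 304.2 and 196.1 CPM in the controls and 116.6, 118.2 and 80.8 CPM with H2O2. Both controls exceeded every H2O2 library, a separation seen in 2 of the 5 members and in 46.0% of all miRNAs tested. The means were 105 ± 21.2 with H2O2 (SD, n = 3) and 250.1 ± 76.4 in control (SD, n = 2), with a log2FC of -1.25, an SE of 0.33 and an interval of -2.02 to -0.48 (FDR = 0.0241). Against control 1 alone the log2FC was -1.56 and against control 2 alone -0.86. A single control gives no measure of the spread between controls, so only the effect size is given. By edgeR's quasi-likelihood test, which called 17 miRNAs in all, the FDR was 0.0660, and with any 1 H2O2 library left out it was 0.211 to 0.244, with log2FC of -1.29 to -1.08. Correction for GC content took the quasi-likelihood value from -1.26 (FDR = 0.0659, same miRNAs) to -0.93 (FDR = 0.0760).

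miR-125a-5p had 138739 CPM in control 1 and 28948 CPM in control 2, with the H2O2 libraries between them at 60346, 57919 and 48804 CPM. The controls differed 4.79-fold, a gap larger than that of 93.1% of the 868 miRNAs tested. For the other members the controls differed 1.23-fold to 1.60-fold, always with control 1 the higher, and 19.4% to 41.2% of miRNAs had a smaller gap. The log2FC of miR-125a-5p was -0.59 with an SE of 0.57 and an interval of -1.94 to 0.76 (FDR = 0.525). As above, a single control gives no measure of the spread between controls, so only effect sizes are given. They were -1.34 against control 1 alone and 0.99 against control 2 alone. The direction of the miR-125a-5p response therefore rests on which control is used.

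**Figure D2:**
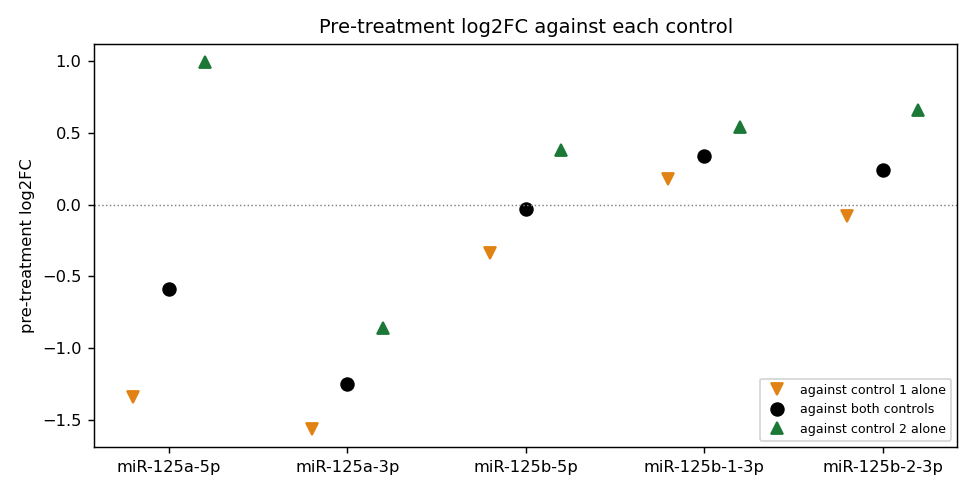
Pre-treatment log2FC (vertical axis, H2O2 against control) of the 5 miRNAs (horizontal axis) against both controls (circles), control 1 alone (downward triangles) and control 2 alone (upward triangles). miR-125a-3p is below 0 against either control and miR-125b-1-3p above 0, whereas miR-125a-5p, miR-125b-5p and miR-125b-2-3p change sign.

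miR-125b-5p had 250.1 and 159.3 CPM in the controls and 194.7, 208.2 and 200 CPM with H2O2, so that the H2O2 libraries lay between the controls. The log2FC was -0.03 (SE 0.30, interval -0.73 to 0.68, FDR = 0.991), and 0.38 without control 1. miR-125b-2-3p had 104.8 and 65.7 CPM in control and 105.6, 99.9 and 97.4 CPM with H2O2. The log2FC was 0.24 (SE 0.31, interval -0.50 to 0.99, FDR = 0.745), and against control 2 alone it was 0.66. For miR-125b-1-3p the controls were at 25.5 and 20.7 CPM and the H2O2 libraries at 32.6, 26.4 and 28.9 CPM. The lowest H2O2 library was just above the higher control, and the log2FC of 0.34 (SE 0.31, interval -0.39 to 1.08) had an FDR of 0.650.

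The responses of the experiments were compared in a joint quasi-likelihood fit of all 11 libraries, as the pre-treatment log2FC minus the co-treatment log2FC. Both log2FC are those of the joint fit, which scales the 11 libraries together, so the differences are not those of the values above. For miR-125a-3p the joint fit gave -1.43 and 0.72, against -1.25 and 0.57 in the separate fits. For miR-125b-1-3p it gave 0.18 and 0.43, against 0.34 and 0.27. miR-125a-3p responded differently, with a difference of -2.15 (SE 0.42, interval -3.05 to -1.25, FDR = 0.00331). It was the only member among 5 to pass, where 245 of 764 miRNAs did (32.1%), so 1 of 5 is not above the background. The median difference over all miRNAs was -0.35. Without pre-treatment control 1 the difference was -1.58, and with the GC trend removed it was -1.13 (FDR = 0.0379).

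For miR-125a-5p the difference was -1.61 (SE 0.67, interval -3.06 to -0.17, FDR = 0.0789). Without pre-treatment control 1 it was 0.21, and without control 2 it was -2.19. The remaining members gave -0.60 for miR-125b-5p (FDR = 0.255), -0.72 for miR-125b-2-3p (FDR = 0.307) and -0.25 for miR-125b-1-3p (FDR = 0.682). Without pre-treatment control 1 the values for miR-125b-5p and miR-125b-2-3p were -0.02 and -0.10, and with the GC trend removed miR-125b-2-3p was at -0.02. The intervals of all 3 included 0, and for miR-125b-1-3p the sign changed with library-size scaling (0.01). The levels themselves were not compared between the experiments, since the experiment and any batch between them cannot be told apart.

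**Figure D3:**
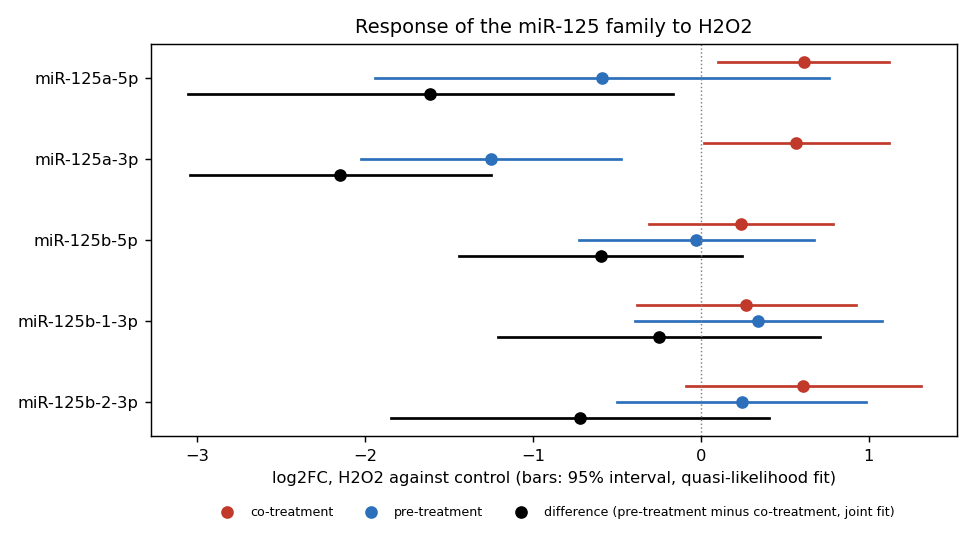
log2FC of H2O2 against control (horizontal axis) for the 5 miRNAs (vertical axis) in co-treatment and pre-treatment, with their difference from the joint fit; points are estimates and bars 95% intervals of the quasi-likelihood fit. For miR-125a-3p the co-treatment interval lies above 0 and the pre-treatment and difference intervals below it, with a difference of -2.15.

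Ratios within a library do not depend on scaling between libraries. The arms of the MIR125A hairpin, which come from the same precursor in equal number, were recovered at 288, 431.4 and 292.2 counts of 5p per count of 3p in co-treatment controls and at 373.8, 335.3 and 350.6 with H2O2. The groups overlapped, with a difference in mean log2 ratio of 0.09 (exact permutation p = 0.7, two-sided). In pre-treatment the ratio was 456 and 147.6 in the controls and 517.3, 489.8 and 603.7 with H2O2. Every H2O2 library was above both controls, the mean log2 ratios being 9.06 ± 0.16 (SD, n = 3) and 8.02 ± 1.15 (SD, n = 2), a difference of 1.04. With 2 against 3 libraries the exact permutation test cannot go below p = 0.2, the value obtained here, and the adjusted p over the 8 ratio tests was 0.533 (exact permutation). Against control 1 alone the difference was 0.23 and against control 2 alone 1.86.

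The ratio of miR-125b-5p to both miR-125b 3p arms together was 1.41 to 1.65 in the pre-treatment H2O2 libraries and 1.84 and 1.92 in the controls, a difference of -0.28 on the log2 scale (exact permutation p = 0.2, the smallest possible, adjusted p = 0.533). In co-treatment it was 1.55 to 2.31 with H2O2 and 1.80 to 3.95 in control, which overlap (difference -0.41, exact permutation p = 0.5, and -0.09 without control 3). miR-125b-1-3p was the rarer 3p arm in every library, at 0.164 to 0.340 counts per count of miR-125b-2-3p. That ratio differed by -0.41 on the log2 scale in co-treatment (exact permutation p = 0.3) and by 0.06 in pre-treatment (exact permutation p = 0.8). The log2 ratio of miR-125b-5p to miR-125a-5p differed by -0.41 in co-treatment (exact permutation p = 0.2) and by 0.20 in pre-treatment (exact permutation p = 0.8), the latter turning to -0.60 without control 1.

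**Figure D4:**
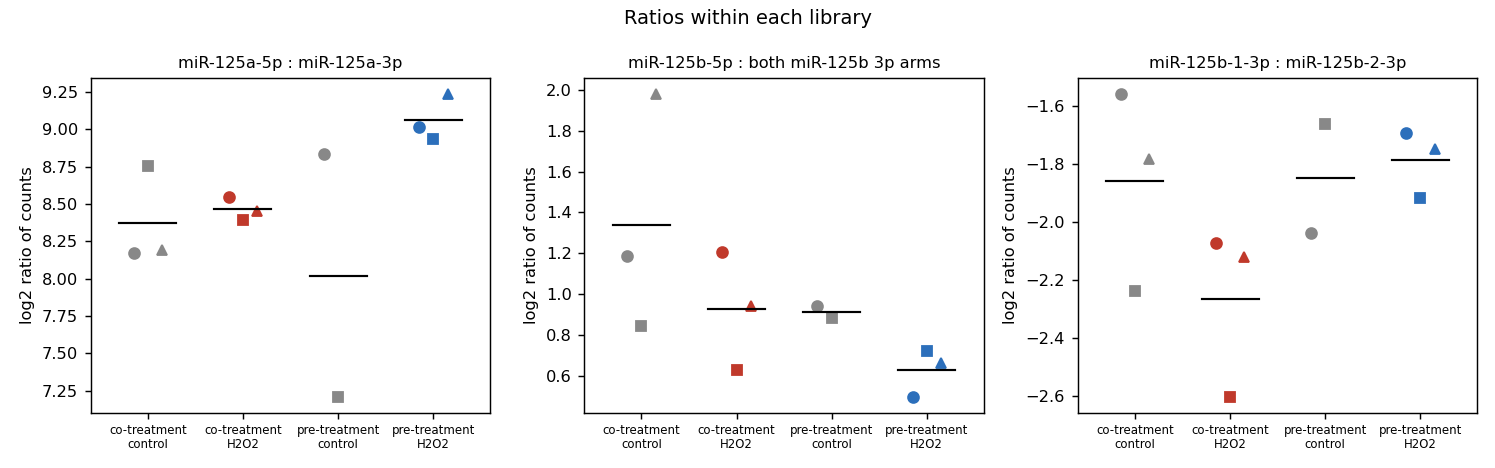
log2 ratio of counts within each library (vertical axes, which do not start at 0) by group (horizontal axes) for miR-125a-5p to miR-125a-3p, miR-125b-5p to both miR-125b 3p arms, and miR-125b-1-3p to miR-125b-2-3p, with group means as lines. In pre-treatment the miR-125a ratio of each H2O2 library, 489.8 or more on the linear scale, is above that of both controls, of which control 2 is the lowest of all 11 libraries at 147.6.

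Summed over the 5 members, the family took 3.82%, 5.48% and 3.05% of all counts in co-treatment controls and 7.22%, 5.91% and 7.12% with H2O2. The groups did not overlap as shares, with means of 4.11% ± 1.24 and 6.75% ± 0.731 (SD, n = 3 each), and the exact permutation p of 0.1 is the smallest that 3 against 3 allows. As TMM-scaled CPM they overlapped (65721 ± 10760 with H2O2 and 43055 ± 16114 in control, exact permutation p = 0.2). In pre-treatment the share was 14.98% in control 1 and 2.65% in control 2, with the H2O2 libraries at 6.19%, 5.94% and 4.91% (summed CPM, exact permutation p = 0.8). The 95% exact binomial intervals of these shares were narrow, for example 2.63% to 2.66% in control 2, and cover counting error only. These sums follow miR-125a-5p, which supplies nearly all of the counts.

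Each hairpin of the family has neighbours of the miR-99/100 and let-7 families. On chromosome 19, MIR99B, MIRLET7E and MIR125A lie within 728 bp. MIR100, MIRLET7A2 and MIR125B1 span 52552 bp on chromosome 11, and MIR99A, MIRLET7C and MIR125B2 span 51237 bp on chromosome 21. Of the 12 arms of these neighbours, 11 were tested in each experiment, and let-7a-2-3p, with at most 0.663 CPM, was too low. In co-treatment 1 was up-regulated and 10 were not called, where 26.2% of all miRNAs tested were called. In pre-treatment 1 was down-regulated and 10 were not called, where 15.3% of all were. Both calls were miR-99b-5p. The median log2FC of the 11 arms was -0.01 in co-treatment and -0.23 in pre-treatment, and the H2O2 and control libraries did not overlap for 2 and 8 of them, against 41.6% and 46.0% of all miRNAs tested.

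miR-99b-5p, the 5p arm of the first hairpin in the chromosome 19 cluster, was at 14010, 19933 and 15588 CPM in co-treatment controls and at 31464, 21033 and 29853 CPM with H2O2, with no overlap. Its log2FC was 0.73 (SE 0.23, FDR = 0.0354). The call was lost with no filter (FDR = 0.0574) and without H2O2 library 1, H2O2 library 3 or control 1 (FDR = 0.107 to 0.151). In the quasi-likelihood fit of miRNAs with a GC value it went from 0.73 (FDR = 0.0249) to 0.25 (FDR = 0.484) once the GC trend was removed. In pre-treatment it was at 52647 and 37494 CPM in control and at 19964, 18988 and 16128 CPM with H2O2, again without overlap. There the log2FC was -1.30 (SE 0.27, FDR = 0.00491), and it was called against control 1 alone (-1.55) and control 2 alone (-0.99). The call was lost with the quasi-likelihood test (FDR = 0.0520), with no filter (FDR = 0.0530) and with any 1 H2O2 library left out (FDR = 0.136 to 0.154). The difference between the experiments was -2.35 (SE 0.36, FDR = 0.00113).

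let-7e-5p, the middle 5p arm of that cluster and a member of the let-7 family of differentiation-associated miRNAs, had 14849, 24705 and 18225 CPM in co-treatment controls and 28975, 20128 and 31330 CPM with H2O2. The groups overlapped (log2FC 0.48, FDR = 0.195). It was called with the GC trend removed (1.07, FDR = 0.0324) and without H2O2 library 2 (0.76, FDR = 0.0246). With any other library left out it was 0.37 to 0.70 (FDR = 0.0553 to 0.469). In pre-treatment the controls, at 23565 and 27740 CPM, were above the H2O2 libraries at 18323, 17331 and 14755 CPM, with a log2FC of -0.61 (FDR = 0.205). There it was called with the filter applied to all libraries (-0.78, FDR = 0.0400) and in the joint fit (-0.75, FDR = 0.0457). Against control 1 alone it was -0.51 and against control 2 alone -0.68. Its responses in the experiments differed by -1.38 (SE 0.33, FDR = 0.00859). The other 3p arms of the cluster were not called in any of these tests. For miR-99b-3p the log2FC was 0.38 in both experiments and the difference -0.29 (FDR = 0.528), and for let-7e-3p the values were -0.09 and -0.42 (FDR = 0.837 and 0.492) with a difference of -0.63 (FDR = 0.197).

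In the clusters of chromosomes 11 and 21 no arm was called in either experiment or in the difference between them. let-7a-5p, which is identical in 3 hairpins, had log2FC of 0.35 and -0.23 in co-treatment and pre-treatment. For let-7c-5p these were -0.01 and -0.29, for let-7c-3p -0.05 and -0.13, and for miR-99a-5p -0.27 and -0.39. miR-99a-3p had -0.50 (FDR = 0.209) and 0.87 (FDR = 0.167), and its difference of 1.07 had an FDR of 0.0804. miR-100-5p had 0.24 and 0.84, the latter with control 1 at 19.3 CPM and control 2 at 82.9 CPM. miR-100-3p lay at or near the detection limit, between 0 and 2.22 CPM.

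**Figure D5:**
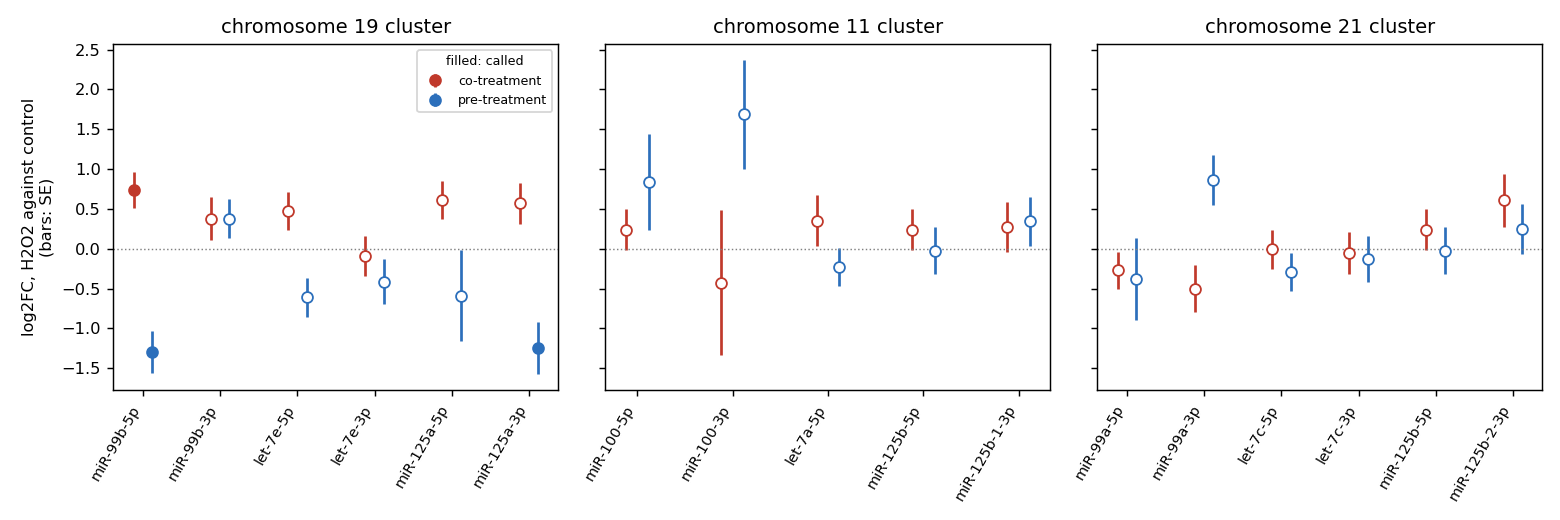
log2FC of H2O2 against control (vertical axis, bars: SE) for the arms of the 3 genomic clusters (horizontal axes) in co-treatment and pre-treatment, with filled symbols for called miRNAs; miR-125b-5p appears in 2 panels because its hairpins lie in both clusters. In the chromosome 19 cluster miR-99b-5p is called in both experiments, at 0.73 and -1.30, and miR-125a-3p in pre-treatment, at -1.25.

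The miRNAs with the pattern most like that of a 5p arm were ranked by Pearson correlation of log2 CPM over the 11 libraries, centred in each experiment, among 382 miRNAs with at least 10 CPM on average in both. For miR-125a-5p they were miR-642a-5p (r = 0.977), miR-3605-3p (0.961), miR-671-3p (0.955), miR-6747-3p (0.953) and miR-342-3p (0.948). miR-125b-5p followed at rank 6 (0.948). For miR-125b-5p they were miR-642a-5p (0.949), miR-125a-5p (0.948), miR-6747-3p (0.922), miR-3605-3p (0.893) and miR-3173-5p (0.887). The 5p arms thus varied together although they come from different hairpins, and their correlation was 0.950 without pre-treatment control 1. They are also near-identical in sequence while miR-125b-5p had 0.0018 to 0.00551 counts per count of miR-125a-5p, and whether reads of one were counted as the other was not tested. In contrast, miR-125a-3p was at rank 66 for miR-125a-5p (r = 0.577), and 0.167 without pre-treatment control 1. The miR-125b 3p arms, from different chromosomes, had r = 0.842. All these values come from the same libraries and share their scaling, depth and differences between controls.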

How the data were processed

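Small RNA of SH-SY5Y cells was sequenced with the QIAseq miRNA kit on an Illumina NextSeq. The authors used cutadapt 2.10 for trimming, Bowtie2 2.4.1 for alignment to hg19 and htseq-count 0.7.2 for the counts of each mature miRNA. The deposited counts are not normalised. The miRBase release, the treatment of reads aligning to several places and any use of molecular identifiers are not given in the sources used here. Counts are therefore taken as reads. The binomial intervals of the shares cover counting error only, whereas the intervals of log2FC also take in the spread between libraries. The authors' tables of log2 fold changes, p-values and FDR were not used.

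Groups followed the labels. The submitters describe biological triplicates with 1 outlying sample removed, and the third pre-treatment control was not analysed here. miRNAs were tested if at least 3 libraries (co-treatment) or 2 (pre-treatment) exceeded the CPM worth 5 counts in the smallest library. The main test was the exact test of edgeR 4.0.16 (R 4.3.3) with TMM scaling and Benjamini-Hochberg FDR over all miRNAs tested, with the thresholds of the study's methods, FDR under 0.05 and |log2FC| above 0.6. edgeR's quasi-likelihood fit gave SE, intervals and the difference between the experiments. Ratios (0.5 counts added) and summed levels were tested by two-sided exact permutation with scipy 1.17.1. Alternatives were DESeq2 1.42.0, other scalings and filters, other log2FC thresholds, GC correction, a block for the replicate number, a joint fit of the experiments and leaving out each library. The exact test, the quasi-likelihood test and DESeq2 were also run on simulated counts, with the outcome not reported here. The simulation had no outlying control and did not cover the GC correction, the replicate block or fits with a single control. Names of 2262 of 2576 miRNAs matched the RefSeq miRNA table (GRCh38.p14), and hairpin positions are from GRCh37. The hairpin sequence of MIR125B2 is not reported here. The GC trend was a lowess curve per library (span 0.5), available for 700 of 790 and 768 of 868 miRNAs tested.

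The members, cluster neighbours, marker lists and alternatives were chosen with earlier results of these data known. Named miRNAs are the members, the 12 arms of their cluster neighbours, miRNAs sharing a member's seed, the 5 most similar to each 5p arm and, where a marker list is given, its members. The correlations without pre-treatment control 1 and the quasi-likelihood test limited to miRNAs with a GC value were added after seeing the data.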

Additional observations from a re-analysis of the deposited data

Results flagged for a closer look

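Among the 5 members and 11 neighbour arms tested, 3 were flagged because their responses differed between the experiments in the joint quasi-likelihood fit of 11 libraries. This is a smaller share than that of all miRNAs given below. The 3 are from the chromosome 19 cluster, whose other arms did not pass: miR-125a-5p (FDR = 0.0789), miR-99b-3p (FDR = 0.528) and let-7e-3p (FDR = 0.197). The pre-treatment log2FC minus the co-treatment log2FC was -2.15 for miR-125a-3p (FDR = 0.00331), -2.35 for miR-99b-5p (FDR = 0.00113) and -1.38 for let-7e-5p (FDR = 0.00859), where 32.1% of 764 miRNAs passed the same test. With the GC trend removed the differences were -1.13 (FDR = 0.0379), -1.14 (FDR = 0.0336) and -2.09 (FDR = 0.00765). Without pre-treatment control 1 they were -1.58, -1.89 and -1.33, and without control 2 they were -2.36, -2.51 and -1.23. These fits hold a single pre-treatment control, so only effect sizes are given. let-7e-5p no longer passed with the replicate number as a block (-1.29, FDR = 0.0781), with no filter (-1.05, FDR = 0.0648) or without pre-treatment H2O2 library 3 (-1.16, FDR = 0.0579). The within-experiment tests called miR-99b-5p in both experiments, miR-125a-3p in pre-treatment and, with the main settings, let-7e-5p in neither. No group had the 4 libraries needed to look for a single outlying one.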

How the results depend on the processing

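Every member had at least 65 counts in each library, and pre-treatment had only 2 controls. In co-treatment the call of no member became 1 with DESeq2 (miR-125a-3p, log2FC 0.61), 1 with library size computed without the members (miR-125a-5p, 0.75) and 2 with the filter applied to all libraries (miR-125a-5p 0.80, miR-125a-3p 0.76). The filter and library-size settings shifted the median of all miRNAs by 0.17 and 0.13. miR-125b-1-3p turned to -0.06 with the GC trend removed and to -0.03 with the block added. Leaving out 1 library gave 0 to 2 called members, 0.55 to 0.97 for miR-125a-5p, 0.53 to 0.77 for miR-125a-3p and 0.43 to 1.12 for miR-125b-2-3p.

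In pre-treatment the call of miR-125a-3p was kept with DESeq2, its size factors, library size with or without the members, both other filters, a |log2FC| threshold of 1 and the joint fit. It was lost, leaving 0 called members, with no filter (-1.09) and with the quasi-likelihood test (-1.25, and -1.26 on miRNAs with a GC value). The GC correction (-0.93), the replicate block (-1.06) and both together (-0.81) use that test and did not call it either. miR-125b-5p turned to 0.13 with no filter and 0.01 with the block. Leaving out any 1 H2O2 library gave 0 called members. With any 1 library left out, control or H2O2, the log2FC was -1.34 to 0.99 for miR-125a-5p and -1.56 to -0.86 for miR-125a-3p. It was -0.34 to 0.38 for miR-125b-5p and -0.08 to 0.66 for miR-125b-2-3p. The sign of miR-125b-5p was turned by leaving out control 1 (0.38), H2O2 library 1 (0.04) or H2O2 library 2 (0.01), that of miR-125a-5p by control 1 (0.99) and that of miR-125b-2-3p by control 2 (-0.08). The cause was not tested.

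The difference between the experiments was called for miR-125a-3p under every alternative run (-2.36 to -1.13). For miR-125b-1-3p it turned to 0.74 with the GC trend removed, 0.01 with library size and 0.11 with no filter. Leaving out 1 library gave -2.19 to 0.21 for miR-125a-5p, where pre-treatment control 1 turned the sign. For miR-125b-1-3p it gave -0.33 to 0.24, turned by co-treatment control 3 (0.24) and pre-treatment control 1 (0.11). No filter, library size and DESeq2 size factors shifted the median difference of all miRNAs by 0.33, 0.23 and 0.21. Among ratios and sums, the H2O2 minus control difference in the 5p to 3p log2 ratio of miR-125a in co-treatment ranged from -0.01 (without control 1) to 0.28. In pre-treatment, the log2 differences ranged from -0.13 to 0.25 for miR-125b-1-3p to miR-125b-2-3p, -0.60 to 1.01 for miR-125b-5p to miR-125a-5p and -1.31 to 0.93 for the summed level, with control 1 left out giving the turned signs.

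By the exact test 207 miRNAs were called in co-treatment, and 98 to 279 with 1 library left out. The quasi-likelihood test called 181, 111 with the block and 90 in the joint fit. On the 700 miRNAs with a GC value it called 153, 49 with the GC trend removed and 0 with the block as well. In pre-treatment the exact test called 133, 61 with no filter and 9 to 16 with 1 H2O2 library left out. Calls with 1 pre-treatment control left out are not given, since a single control gives no measure of the spread between controls. The quasi-likelihood test called 17, and 15 with the block. On the 768 miRNAs with a GC value it called 12, 15 with the GC trend removed and 0 with the block as well. For the difference, 245 were called, 80 with the block and 183 to 240 with 1 library other than a pre-treatment control left out. On miRNAs with a GC value 211 were called, and 94 with the GC trend removed. The share of calls up-regulated in co-treatment, 40.6%, was 56.9% with the filter in all libraries and 56.0% with library size without the members. For the difference it was 37.1%, and 48.8% with no filter and 47.6% with library size.

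Same-numbered libraries had correlations of their deviations from the group mean of -0.179 to 0.0480 in co-treatment and of 0.278 and -0.0268 in pre-treatment. For differently numbered libraries these were -0.0604 to 0.212 and -0.278 to 0.271. In pre-treatment the deviations of the controls are mirror images of each other. With so few libraries these values cannot decide whether the replicate numbers pair them. Against the quasi-likelihood fit without the block, the block ended the co-treatment call of miR-99b-5p (0.73, FDR = 0.0247 without and 0.0906 with it) and the difference of let-7e-5p. In pre-treatment miR-99b-5p missed the threshold in both (-1.30, FDR = 0.0520, and -1.19, FDR = 0.363).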
